A study of Mus musculus with 23 samples.

Results

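The genes through which cells sense bacterial endotoxin and then restrain the NF-kB response were followed in mouse hearts after a challenge with endotoxin or with an adrenergic agonist. The set holds 10 of the 55487 gene identifiers in the files and was chosen by name and function, as Toll-like receptors, their adapters and the inhibitors of NF-kB, by matching Ensembl identifiers to symbols. It comprises the receptors Tlr4 and Tlr2, the co-receptors Cd14, Ly96 and Lbp, the adapter Myd88 with its brake Irak3, and the inhibitors Tnfaip3, Nfkbia and Nfkbiz. The choice was made with earlier results of these data known. All 10 passed the filter on low counts.

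Poly-A RNA of whole hearts had been sequenced in 23 libraries, from female wild-type mice of the inbred strain C57BL/6J aged 10 weeks. Hearts were taken 1 day (n = 4) and 7 days (n = 4) after lipopolysaccharide (LPS, the bacterial endotoxin) at 2.5 mg/kg, with an untreated LPS baseline (n = 4). In the other arm they were taken 1 day (n = 3) and 7 days (n = 4) after isoproterenol (ISO, an agonist of beta-adrenergic receptors) at 300 mg/kg, with an untreated ISO baseline (n = 4). The baseline mice received nothing, so the agent and the act of giving it cannot be told apart, and the day 1 and day 7 comparisons of an arm share its baseline libraries.

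As background, endotoxin in blood is bound by the lipopolysaccharide-binding protein Lbp and handed by Cd14 to a complex of Tlr4 with Ly96, also called MD-2, while Tlr2 senses bacterial lipoproteins. Both receptors recruit Myd88, which assembles IRAK kinases and leads to the release of NF-kB from its inhibitor IkB-alpha, the product of Nfkbia. NF-kB then induces its own restraints, among them Nfkbia itself, the ubiquitin-editing enzyme A20 encoded by Tnfaip3, and Irak3, an IRAK relative that blocks the signal, together with Nfkbiz, a nuclear IkB relative that modulates secondary target genes. In the heart these genes are used by resident and invading leukocytes, by endothelial cells and by cardiomyocytes.

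In GRCm38, the assembly of mm10, with GENCODE M21 all 10 are protein-coding, and Cd14 has the identifier ENSMUSG00000051439. Tlr4 (ENSMUSG00000039005) spans chr4:66827584-66930284, Tlr2 (ENSMUSG00000027995) chr3:83836272-83841767 and Ly96 (ENSMUSG00000025779) chr1:16688051-16709611. Lbp (ENSMUSG00000016024) spans chr2:158306493-158332852, Myd88 (ENSMUSG00000032508) chr9:119335934-119341411 and Irak3 (ENSMUSG00000020227) chr10:120141648-120202130. Tnfaip3 (ENSMUSG00000019850) spans chr10:19000910-19015657, Nfkbia (ENSMUSG00000021025) chr12:55489410-55492647 and Nfkbiz (ENSMUSG00000035356) chr16:55811375-55838899. Myd88 overlaps Slc22a14 on its own strand and Acaa1a on the other, and Irak3 overlaps Tmbim4 and the antisense gene Gm47009, and as no strand setting is stated, reads of these neighbours may be counted with them.

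The upstream sequence of these genes was searched because NF-kB binds a short DNA element, the kappaB site, in the promoters of its feedback genes. RefSeq gave 300-base promoter windows on GRCm38.p6 for 5 of the 10 genes (Tlr2, Myd88, Irak3, Tnfaip3 and Nfkbia, 7 windows in all), and the 250 bases before each start were read on both strands. A match to the kappaB consensus (10 letters) stood upstream of 3 of them, Tlr2, Tnfaip3 and Nfkbia, while 7.25% of all 32851 promoters in the table hold one. The matches are shown along each gene, 5′ to 3′, with the matched letters in capitals. The Tlr2 stretch (chr3:83841762-83841791, minus strand) holds a pair of overlapping matches at positions -173 to -163 from the RefSeq start, and the Tnfaip3 stretches (chr10:19015516-19015545 and chr10:19015411-19015432, minus strand) hold matches at -125 to -116 and at -12 to -3. For Nfkbia all 250 upstream bases are shown (chr12:55492648-55492897, minus strand), with the match at -29 to -20.
Tlr2: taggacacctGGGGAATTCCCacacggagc
Tnfaip3, distal match: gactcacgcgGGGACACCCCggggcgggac
Tnfaip3, proximal match: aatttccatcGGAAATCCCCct
Nfkbia: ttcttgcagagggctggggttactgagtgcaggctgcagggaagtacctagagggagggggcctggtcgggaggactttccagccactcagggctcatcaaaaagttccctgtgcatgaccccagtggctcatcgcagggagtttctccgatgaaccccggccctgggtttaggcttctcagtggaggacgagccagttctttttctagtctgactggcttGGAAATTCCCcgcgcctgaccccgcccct
The Tlr2 and Nfkbia matches lie upstream of the GENCODE gene, and both Tnfaip3 matches lie inside the transcribed region that GENCODE gives it. Other motifs found in these windows were TTCNNNGAA (the STAT element, in 7.02% of all promoters) at -46 to -38 of Myd88, overlapped by GAAANNGAA (a core of the interferon-stimulated response element, in 7.13% of all promoters) at -40 to -32. That Myd88 window (chr9:119339969-119340268) lies inside the transcribed region that GENCODE gives the gene. GAAANNGAA also stood at -102 to -94 of Irak3 and at -53 to -45 of Nfkbia, and TGACGTCA (the cAMP response element, in 1.55% of all promoters) in none of the 7 windows. Of the genes with a kappaB match, Tnfaip3 and Nfkbia rose at day 1 in both arms, and Tlr2 rose at day 1 only in the LPS arm, where the test of the difference between arms was passed too. Myd88 and Irak3, whose windows held no kappaB match, also rose at day 1 in both arms. The part of these matches in the changes was not tested.

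Library totals were 20910394 to 30368985 estimated reads, and 15732 genes entered a joint test with edgeR's quasi-likelihood method, adjusted by Benjamini-Hochberg and called at an adjusted p under 0.05. Since the design counts mice per group, the p-values take in variation between animals as well as between library preparations. The 4 LPS day 1 libraries fell into 2 pairs, replicates 1 and 2 and replicates 3 and 4. The chi-square per degree of freedom over gene counts was 13.31 within the first pair, 10.56 within the second and 30.51 to 45.63 across them. For 8 of the 10 genes (Cd14 and Lbp were the exceptions) the TPM of the pairs did not overlap, as was so for 53.9% of all genes tested. At ISO day 7, replicate 3 stood apart with a summed macrophage marker level of 329 CPM against 156 to 183 CPM in the other libraries, and it was the highest of the 4 for 9 of the 10 genes and for 57.8% of all genes.

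At LPS day 1, 9 of the 10 genes rose over LPS baseline and only Ly96 did not pass the test, with fold changes of 1.49 for Tlr4 to 23.3 for Nfkbiz among those that rose. Of all genes tested, 33.2% were called higher and 33.0% lower in that comparison. The median log2 change was 2.49 over the 10 genes and 0.000 over all genes tested. At ISO day 1, 8 of the 10 rose over ISO baseline, all but Tlr2 and Ly96, with 32.9% of all genes called higher and 32.8% lower. Here the medians were 1.44 over the 10 genes and -0.015 over all genes. Fold changes among the 8 ran from 2.06 for Lbp to 6.70 for Cd14. These shares are the background against which the counts stand, but the 10 genes were chosen with earlier results of these data known. Their counts and medians are therefore a description and not a test against all genes. The sizes of the changes differ more than the calls.

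**Figure D1:**
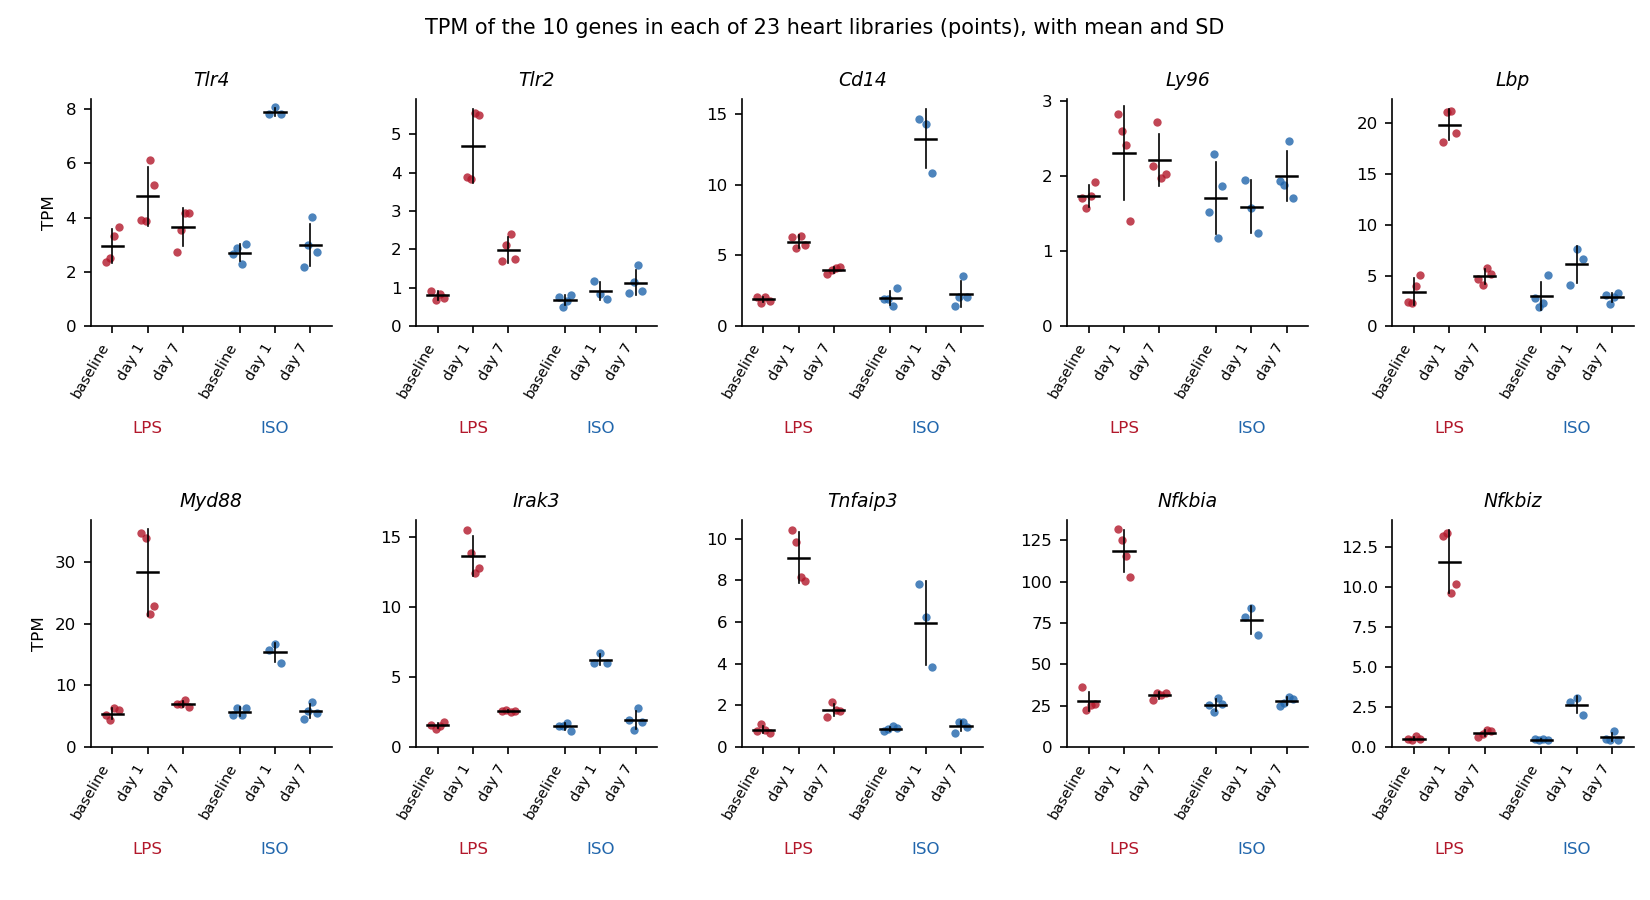
TPM (a transcript abundance scaled by gene length and library size) of the 10 genes in every library; each point is 1 library, the horizontal bar is the group mean and the vertical bar its SD. Tlr4 and Cd14 stand highest at ISO day 1, with means of 7.90 and 13.2 TPM, and the other genes at LPS day 1, Nfkbiz with a mean of 11.6 TPM.

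Tlr4, the signalling receptor for endotoxin, was higher after isoproterenol than after endotoxin itself. It had 3.93, 3.88, 6.11 and 5.20 TPM at LPS day 1, against 2.38, 2.50, 3.31 and 3.66 TPM at LPS baseline. It had 7.80, 8.08 and 7.81 TPM at ISO day 1, against 2.67, 2.88, 2.30 and 3.03 TPM at ISO baseline. In both arms every day 1 library stood above every baseline library, narrowly so after LPS and by a wide margin after ISO. On the log2 scale the rise was 0.58 (SE 0.14, adjusted p = 0.0009908) after LPS and 1.34 (SE 0.15, adjusted p = 4.04e-08) after ISO. The LPS change minus the ISO change was -0.77 (95% interval -1.19 to -0.35, adjusted p = 0.004535). The higher pair of LPS day 1 libraries was replicates 3 and 4; without them the LPS change was 0.43 and without replicates 1 and 2 it was 0.71, with adjusted p of 0.0319 and 0.000728.

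Tlr2, the receptor for bacterial lipoproteins, showed the opposite order. Its level was 3.89, 3.84, 5.56 and 5.49 TPM at LPS day 1, against 0.930, 0.685, 0.853 and 0.747 TPM at LPS baseline. At ISO day 1 it was 1.17, 0.853 and 0.711 TPM, against 0.756, 0.511, 0.670 and 0.827 TPM at ISO baseline. The LPS groups were far apart, whereas the ISO groups overlapped. The log2 change was 2.56 (SE 0.17, adjusted p = 8.202e-12) after LPS and 0.33 (95% interval -0.10 to 0.75, adjusted p = 0.1636) after ISO. The difference between the arms, 2.24 (95% interval 1.69 to 2.78, adjusted p = 6.178e-07), was the largest of the 10 genes.

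Within each library, the ratio of Tlr2 to Tlr4 set these opposite orders side by side on the TPM scale. The ratio was 0.986 ± 0.0598 at LPS day 1 (SD, n = 4), against 0.282 ± 0.0788 at LPS baseline (SD, n = 4). It was 0.115 ± 0.0305 at ISO day 1 (SD, n = 3), against 0.256 ± 0.0531 at ISO baseline (SD, n = 4). Tlr2 thus reached the level of Tlr4 1 day after LPS and stood far below it 1 day after ISO, without overlap of either day 1 group with its baseline. The exact permutation test, whose two-sided p doubles the smaller one-sided p, gave p = 0.02857 for LPS and p = 0.05714 for ISO. These are the smallest it can give for 4 against 4 and 3 against 4 libraries. Adjusted over the 24 ratio comparisons made, these were 0.0686 and 0.0857, so neither passed 0.05. No ratio at ISO day 1 could pass in this form of the test, whatever its values. That limit comes from the doubling, as a two-sided p without it could be smaller for 3 against 4 libraries.

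**Figure D2:**
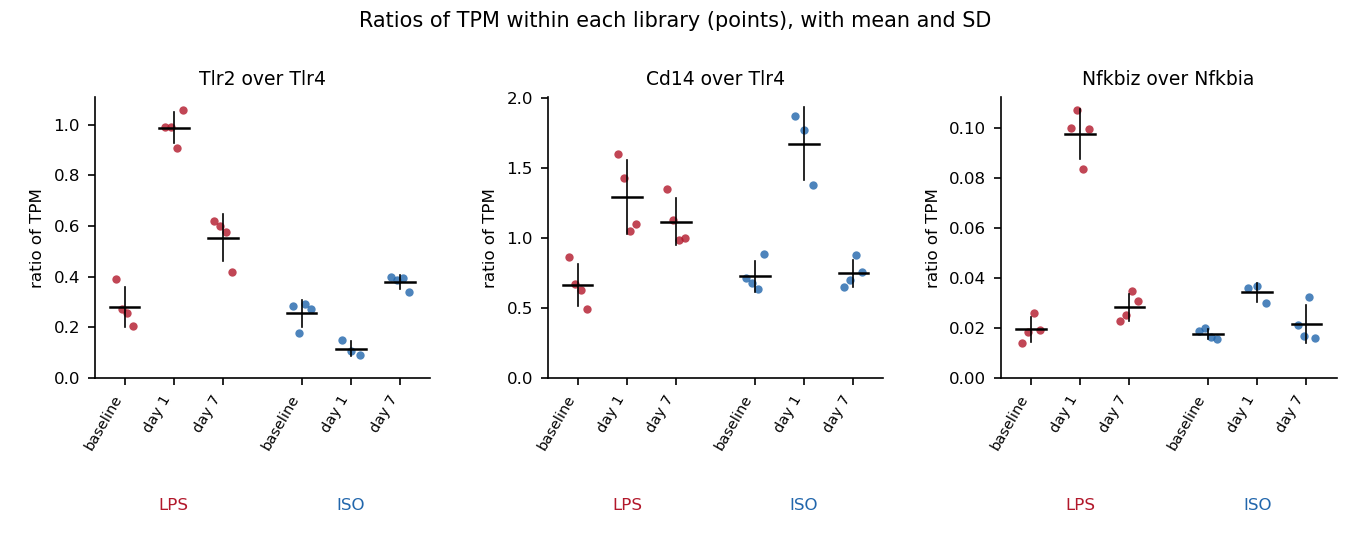
Ratios of TPM between pairs of genes within each library (points), with group mean (horizontal bar) and SD (vertical bar). Tlr2 over Tlr4 averages 0.986 at LPS day 1 and 0.115 at ISO day 1, Cd14 over Tlr4 averages 1.29 and 1.68 in these groups, and Nfkbiz over Nfkbia averages 0.0975 and 0.0342.

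Cd14, which delivers endotoxin to the receptor complex, rose with Tlr4 in both arms and more so after ISO. It stood at 6.30, 5.53, 6.40 and 5.71 TPM at LPS day 1, against 2.05, 1.68, 2.08 and 1.81 TPM at LPS baseline. It stood at 14.6, 14.3 and 10.8 TPM at ISO day 1, against 1.91, 1.95, 1.45 and 2.68 TPM at ISO baseline. No day 1 library of either arm reached down to its baseline, and every ISO day 1 library was above every LPS day 1 library. The log2 changes were 1.70 (SE 0.16, adjusted p = 4.297e-09) after LPS and 2.74 (SE 0.17, adjusted p = 2.876e-12) after ISO. The LPS change minus the ISO change was -1.05 (95% interval -1.53 to -0.56, adjusted p = 0.001106). Cd14 and Tlr4 were the only members of the 10 whose change was smaller after LPS by this test.

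Ly96, the MD-2 subunit without which Tlr4 does not bind endotoxin, was the exception among the receptor genes. It averaged 2.32 ± 0.629 TPM at LPS day 1 and 1.74 ± 0.143 TPM at LPS baseline (SD, n = 4 each). It averaged 1.59 ± 0.353 TPM at ISO day 1 (SD, n = 3) and 1.71 ± 0.480 TPM at ISO baseline (SD, n = 4). Groups overlapped in both arms, and the log2 changes of 0.37 (95% interval -0.15 to 0.88, adjusted p = 0.1982) and -0.16 (95% interval -0.73 to 0.42, adjusted p = 0.6396) did not pass the test. The difference between arms did not pass either, and it turned on the LPS day 1 pairs, at 0.92 (adjusted p = 0.0354) without replicates 3 and 4 and -0.00 (adjusted p = 0.998) without replicates 1 and 2. Only 13 to 33 reads per library lay behind these values, and the LPS interval still admits a change of the size of that of Tlr4. The LPS change turned on the same pairs. It was 0.77 (adjusted p = 0.00919) without replicates 3 and 4 and -0.16 (adjusted p = 0.636) without replicates 1 and 2. Replicates 3 and 4 had 0.745 and 0.581 CPM, against 1.23 and 1.30 CPM in replicates 1 and 2. In TPM replicate 4 stood lowest (1.41, against 2.83, 2.60 and 2.42 in the others). Replicate 3 had the shortest effective length of the group, 379 bases. Without replicate 4 alone the change was 0.56 with an adjusted p of 0.0473.

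Lbp, the plasma carrier of endotoxin and an acute-phase gene best known from liver, rose in both arms and most after LPS. It stood at 18.1, 21.1, 21.2 and 19.0 TPM at LPS day 1, against 2.43, 2.28, 3.96 and 5.01 TPM at LPS baseline. At ISO day 1 it stood at 4.07, 7.60 and 6.66 TPM, against 2.82, 1.94, 2.28 and 5.01 TPM at ISO baseline. The LPS groups lay far apart, while the ISO groups overlapped in TPM through 1 library on each side. The authors' effective length for Lbp varied from 951 to 2506 bases between libraries, which enters TPM. Without that length the ISO groups separated, at 9.01 to 9.58 CPM (counts scaled to library size) at day 1 against 4.08 to 5.58 CPM at baseline. In the count test the log2 change was 2.54 (SE 0.12, adjusted p = 5.183e-14) after LPS and 1.04 (SE 0.14, adjusted p = 6.538e-07) after ISO, a difference of 1.498 (95% interval 1.11 to 1.88, adjusted p = 1.155e-06). The summed level of 7 hepatocyte markers was 2.72 to 5.37 CPM at LPS day 1 against 1.30 to 1.90 CPM at LPS baseline, and 6.77 to 10.4 CPM at ISO day 1 against 1.56 to 2.23 CPM at ISO baseline. Lbp alone had 26.3 to 29.1 CPM at LPS day 1 against 4.15 to 5.18 CPM at LPS baseline. Of the 7 hepatocyte markers only Ahsg and Ttr had enough reads to be tested. Both rose at ISO day 1, and Ahsg rose at LPS day 1. The part of liver RNA in the Lbp changes was not tested.

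Myd88, the adapter shared by Tlr4 and Tlr2, rose 5.46-fold after LPS and 2.63-fold after ISO. Its level was 34.8, 34.0, 21.6 and 22.9 TPM at LPS day 1, against 5.20, 4.31, 6.29 and 5.93 TPM at LPS baseline. It was 15.7, 16.8 and 13.7 TPM at ISO day 1, against 5.11, 6.31, 5.16 and 6.40 TPM at ISO baseline. All day 1 libraries stood above their baselines, and within LPS day 1 replicates 1 and 2 were the high pair. The log2 changes were 2.45 (SE 0.17, adjusted p = 1.493e-11) and 1.39 (SE 0.17, adjusted p = 3.263e-07), and the difference between arms was 1.06 (95% interval 0.56 to 1.56, adjusted p = 0.001321). That difference was 0.58 without LPS day 1 replicates 1 and 2 and 1.42 without replicates 3 and 4, and passed the test both ways, with adjusted p of 0.00366 and 1.05e-07.

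Irak3, also called IRAK-M and known as a brake on Myd88 signalling in macrophages, rose further than Myd88. It had 15.6, 13.9, 12.4 and 12.8 TPM at LPS day 1, against 1.60, 1.32, 1.49 and 1.76 TPM at LPS baseline. After ISO it had 6.01, 6.70 and 6.02 TPM at day 1, against 1.52, 1.53, 1.73 and 1.13 TPM at ISO baseline. None of these groups overlapped, and the lowest LPS day 1 library was above the highest ISO day 1 library. On the log2 scale Irak3 rose by 3.17 (SE 0.16, adjusted p = 1.152e-13) after LPS and 1.94 (SE 0.17, adjusted p = 1.44e-09) after ISO, with a difference of 1.23 (95% interval 0.74 to 1.72, adjusted p = 0.0002564). The ratio of Irak3 to Myd88 in TPM was 0.498 ± 0.0817 at LPS day 1 and 0.287 ± 0.0341 at LPS baseline (SD, n = 4 each). It was 0.407 ± 0.0295 at ISO day 1 (SD, n = 3) and 0.263 ± 0.0692 at ISO baseline (SD, n = 4). Brake over adapter was therefore higher in every day 1 library than in any baseline library of its arm, with exact permutation p of 0.02857 and 0.05714 and adjusted p of 0.0686 and 0.0857.

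Nfkbia, the gene of IkB-alpha that holds NF-kB in the cytoplasm, was the most abundant of the 10 genes in TPM in every group. It stood at 132, 125, 116 and 102 TPM at LPS day 1, against 36.0, 22.6, 25.6 and 26.2 TPM at LPS baseline. Its ISO day 1 level was 78.3, 84.1 and 67.7 TPM, against 25.3, 21.1, 29.4 and 26.1 TPM at ISO baseline. Both day 1 groups were clear of their baselines and of each other. The log2 changes were 2.11 (SE 0.14, adjusted p = 8.037e-12) after LPS and 1.496 (SE 0.14, adjusted p = 5.674e-09) after ISO. The difference, 0.61 (95% interval 0.20 to 1.02, adjusted p = 0.01764), rested on the high LPS day 1 pair: without replicates 1 and 2 it was 0.36 with an adjusted p of 0.134, and without replicates 3 and 4 it was 0.83 with an adjusted p of 0.00139.

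Tnfaip3, whose product A20 removes activating ubiquitin chains upstream of NF-kB, rose strongly in both arms. It had 10.4, 9.82, 8.16 and 7.95 TPM at LPS day 1, against 0.773, 1.08, 0.811 and 0.681 TPM at LPS baseline. At ISO day 1 it had 7.81, 6.24 and 3.83 TPM, against 0.779, 0.843, 0.994 and 0.890 TPM at ISO baseline. Neither day 1 group overlapped its baseline, and ISO day 1 replicate 3 stood lowest. The log2 changes were 3.42 (SE 0.21, adjusted p = 3.758e-12) and 2.71 (SE 0.23, adjusted p = 5.408e-10). The difference between arms of 0.72 (95% interval 0.07 to 1.37) did not pass, with an adjusted p of 0.0777. It passed when any 1 of 3 libraries was left out, at 0.98 (adjusted p = 0.016) without ISO day 1 replicate 1, 0.88 (adjusted p = 0.0395) without LPS baseline replicate 2 and 0.81 (adjusted p = 0.0473) without LPS day 1 replicate 3. It also moved with the LPS day 1 pairs, to 0.43 (adjusted p = 0.307) without replicates 1 and 2 and to 0.96 (adjusted p = 0.0182) without replicates 3 and 4.

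Nfkbiz, the nuclear IkB relative that modulates late NF-kB target genes, had the largest change of the 10 genes at LPS day 1. It was at 13.2, 13.4, 9.65 and 10.2 TPM at LPS day 1, against 0.498, 0.417, 0.670 and 0.500 TPM at LPS baseline. It was at 2.81, 3.08 and 2.03 TPM at ISO day 1, against 0.470, 0.422, 0.485 and 0.407 TPM at ISO baseline. All day 1 libraries stood above their baselines, and the lowest LPS day 1 library was above the highest ISO day 1 library. The log2 changes were 4.54 (SE 0.22, adjusted p = 3.542e-14) after LPS and 2.54 (SE 0.24, adjusted p = 4.878e-09) after ISO, a difference of 2.002 (95% interval 1.29 to 2.71, adjusted p = 7.525e-05). Set against Nfkbia in the same library, Nfkbiz had a ratio of TPM of 0.0975 ± 0.00994 at LPS day 1 and 0.0194 ± 0.00507 at LPS baseline (SD, n = 4 each). The ratio was 0.0342 ± 0.00362 at ISO day 1 (SD, n = 3) and 0.0177 ± 0.00200 at ISO baseline (SD, n = 4). The inhibitors thus moved by unequal amounts in each arm, with no overlap between day 1 and baseline ratios, and the exact permutation p of 0.02857 and 0.05714 became 0.0686 and 0.0857 on adjustment.

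Between the arms, the day 1 change differed for 8 of the 10 genes. It was larger after LPS for Tlr2, Nfkbiz, Lbp, Irak3, Myd88 and Nfkbia, where 18.2% of all genes tested were called in that direction. It was larger after ISO for Cd14 and Tlr4, where 19.5% of all genes were called that way. The median difference was 0.89 on the log2 scale over the 10 genes and -0.004 over all genes. DESeq2 and limma-voom each called 8 of the 10 as well. The calls of Nfkbia, Tnfaip3 and Ly96 in this comparison turned on which LPS day 1 pair was left out, as given for each gene. The LPS and ISO baselines did not differ by the test for any of the 10 genes, 0 of them at an unadjusted p under 0.05 with edgeR (10.8% of all genes) and 0 called by DESeq2 or limma-voom, while edgeR called 1.21% of all genes. The 10 log2 differences between baselines lay between -0.14 for Myd88 and 0.19 for Nfkbiz.

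**Figure D3:**
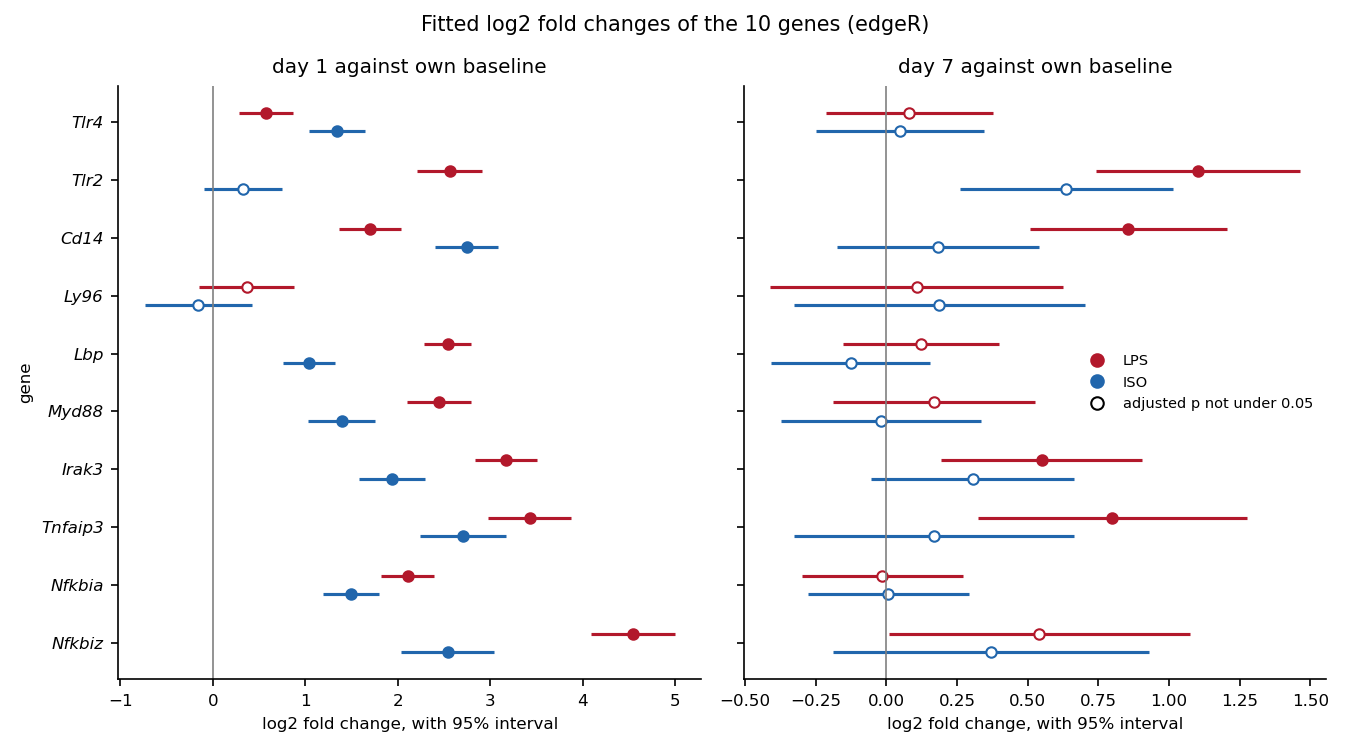
Log2 fold change of the 10 genes at day 1 (left) and day 7 (right) against the baseline of the same arm, LPS above ISO for each gene; lines are 95% intervals and open circles did not pass an adjusted p of 0.05. At day 1 the LPS point lies to the right of the ISO point for 8 genes and to the left for Tlr4 and Cd14; at day 7 only Tlr2, Cd14, Irak3 and Tnfaip3 in the LPS arm have filled circles.

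By day 7 most of the rise had gone. Against day 1 of the same arm, 9 of the 10 genes were lower at LPS day 7, all but Ly96, where 32.5% of all genes were called lower and 33.9% higher. At ISO day 7, 8 were lower than at ISO day 1, all but Tlr2 and Ly96, where 31.9% of all genes were called lower and 33.2% higher. Nfkbiz fell furthest after LPS, to 0.890 ± 0.198 TPM at day 7 against 11.6 ± 1.96 TPM at day 1 (SD, n = 4 each), with a log2 change of -4.00 (SE 0.21) and an adjusted p of 1.669e-13. Cd14 fell furthest after ISO, to 2.28 ± 0.888 TPM at day 7 (SD, n = 4) against 13.2 ± 2.10 TPM at day 1 (SD, n = 3). This log2 change of -2.56 (SE 0.16, adjusted p = 5.883e-12) was close to the -2.54 of Tnfaip3 (SE 0.22, adjusted p = 1.017e-09). Cd14 fell less than the other called genes of the LPS arm except Tlr4, to 4.00 ± 0.208 TPM at LPS day 7 against 5.99 ± 0.429 TPM at LPS day 1 (SD, n = 4 each), by 0.84 on the log2 scale (SE 0.15, adjusted p = 4.497e-05). The fall of Tlr4 in the LPS arm, -0.49 (SE 0.14, adjusted p = 0.003523), did not pass with scaling by library totals (-0.31, adjusted p = 0.11) or without LPS day 1 replicates 3 and 4 (-0.34, adjusted p = 0.0782). For Tlr2 the difference between ISO day 7 and ISO day 1 was 0.31 (adjusted p = 0.1621), and it was 0.53 (adjusted p = 0.0325) without ISO day 1 replicate 1.

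Against baseline, 4 genes were still higher at LPS day 7, where 5.96% of all genes tested were called higher and 3.13% lower. These were Tlr2, Cd14, Tnfaip3 and Irak3. The median log2 change was 0.36 over the 10 genes and 0.003 over all genes. Tlr2 had 1.70, 2.12, 2.41 and 1.75 TPM at LPS day 7, against 0.930, 0.685, 0.853 and 0.747 TPM at LPS baseline, a log2 change of 1.10 (SE 0.17, adjusted p = 0.0004279). Cd14 had 3.71, 4.00, 4.12 and 4.17 TPM at LPS day 7, against 2.05, 1.68, 2.08 and 1.81 TPM at LPS baseline, a log2 change of 0.86 (SE 0.17, adjusted p = 0.002761). Neither gene's groups overlapped in TPM, but nor did those of Myd88 and Ly96, which were not called. The share of all genes without overlap in this comparison was not determined, so the separation is a description only. With log2(TPM + 0.1) the median change of all genes was 0.20 in this comparison. The calls of Tlr2 and Cd14 in the count test held whichever library was left out. As these are bulk tissue values, fewer or more cells of a type and less or more RNA per cell cannot be told apart. The summed level of 10 macrophage markers was 294 to 344 CPM at LPS day 7 against 164 to 201 CPM at LPS baseline, and that of 7 monocyte markers 106 to 136 CPM against 70.0 to 92.5 CPM. Of these lists 8 and 4 genes were called higher and 0 lower. Their part in these changes was not tested.

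The calls of both inhibitory genes at LPS day 7 were close to the threshold. Tnfaip3 had 1.45, 2.17, 1.78 and 1.72 TPM at LPS day 7, against 0.773, 1.08, 0.811 and 0.681 TPM at LPS baseline, a log2 change of 0.80 (SE 0.23, adjusted p = 0.0303). Irak3 had 2.61, 2.65, 2.50 and 2.59 TPM at LPS day 7, against 1.60, 1.32, 1.49 and 1.76 TPM at LPS baseline, a log2 change of 0.55 (SE 0.17, adjusted p = 0.04641). The groups did not overlap in TPM for either gene, as for the uncalled Myd88 and Ly96. The Irak3 call was lost whichever of the 8 LPS baseline and LPS day 7 libraries was left out, with adjusted p of 0.0533 without baseline replicate 4 to 0.14 without baseline replicate 2. The Tnfaip3 call was lost without LPS baseline replicate 1 (adjusted p = 0.0818), 3 (0.0718) or 4 (0.0896) and without LPS day 7 replicate 2 (0.113) or 3 (0.078). Nfkbia, by contrast, was at 28.2, 32.9, 31.4 and 32.6 TPM at LPS day 7, against 36.0, 22.6, 25.6 and 26.2 TPM at LPS baseline, with a log2 change of -0.01 (95% interval -0.30 to 0.27, adjusted p = 0.9677). Nfkbiz, Myd88, Lbp, Tlr4 and Ly96 had log2 changes of 0.54, 0.17, 0.12, 0.08 and 0.11 there, with adjusted p of 0.2078, 0.6107, 0.6376, 0.7878 and 0.8509.

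At ISO day 7, 0 of the 10 genes were called against ISO baseline by edgeR, DESeq2 or limma-voom, and edgeR called 0.00636% of all genes. At an unadjusted p under 0.05, where 5.49% of all genes stood, there was 1, Tlr2, with 0.878, 1.15, 1.60 and 0.925 TPM at ISO day 7 against 0.756, 0.511, 0.670 and 0.827 TPM at ISO baseline. Its groups did not overlap and its log2 change was 0.64 (95% interval 0.26 to 1.01), with an adjusted p of 0.717 in edgeR's test. Leaving out replicate 3, the library that stood apart, left the count at 0. The change at day 7 did not differ between the arms by the test for any gene, with 1 at an unadjusted p under 0.05 by edgeR (9.46% of all genes), 0 called by DESeq2 or limma-voom, and 0.458% of all genes called by edgeR. That gene was Cd14, with a difference of 0.67 (95% interval 0.17 to 1.17, adjusted p = 0.3451), which became 0.88 with an adjusted p of 0.035 without ISO day 7 replicate 3.

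The order of levels among the 10 genes changed with the challenge on the TPM scale. At baseline Nfkbia came first, with means of 27.6 TPM in the LPS arm and 25.5 TPM in the ISO arm, followed by Myd88 at 5.43 and 5.74 TPM, and Nfkbiz last at 0.521 and 0.446 TPM. Between them came Lbp, Tlr4, Cd14, Ly96 and Irak3 at 1.48 to 3.42 TPM, most of them overlapping their neighbour in the order, and Tnfaip3 and Tlr2 at 0.691 to 0.876 TPM. At LPS day 1 the order after Nfkbia (119 TPM) and Myd88 (28.3 TPM) was Lbp at 19.8, Irak3 at 13.7, Nfkbiz at 11.6 and Tnfaip3 at 9.09 TPM. The receptor genes Cd14, Tlr4, Tlr2 and Ly96 followed at 5.99, 4.78, 4.70 and 2.32 TPM. Ranges of neighbours in that order overlapped from Irak3 to Nfkbiz to Tnfaip3 and from Cd14 to Tlr4 to Tlr2, and nowhere else. At ISO day 1 Cd14 (13.2 TPM) overlapped Myd88 (15.4 TPM) behind Nfkbia (76.7 TPM), Tlr4 (7.90 TPM) came next, and Tlr2 was last at 0.911 TPM. Irak3, Lbp and Tnfaip3, at 6.25, 6.11 and 5.96 TPM, overlapped each other over the ISO day 1 libraries.

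Markers of other cell types shifted with the same groups. The 10 neutrophil markers summed to 46.5 to 56.9 CPM at LPS day 1 against 1.64 to 2.01 CPM at LPS baseline, and to 7.12 to 15.4 CPM at ISO day 1 against 1.19 to 1.94 CPM at ISO baseline, with all 10 detected at day 1 in both arms. Ly6g, a defining marker, had no reads in either baseline. Of the 8 neutrophil markers tested, 8 rose at LPS day 1 and 7 at ISO day 1, with median log2 changes of 4.94 and 5.91. The 10 macrophage markers summed to 80.5 to 101 CPM at LPS day 1 against 164 to 201 CPM at LPS baseline, and to 164 to 172 CPM at ISO day 1 against 176 to 196 CPM at ISO baseline. They were mixed, with 1 higher (Fcgr1) and 5 lower at LPS day 1, and 2 higher (Cd163 and Cd68) and 4 lower at ISO day 1. Of all genes, 33.2% were called higher and 33.0% lower at LPS day 1, and 32.9% and 32.8% at ISO day 1. The 9 genes called higher at LPS day 1 and the 8 at ISO day 1 were thus measured in libraries with a higher neutrophil and a lower macrophage marker sum than baseline. Cd14 had its highest mean at ISO day 1, where the neutrophil sum was below that at LPS day 1, and most of the other genes had theirs at LPS day 1. Monocyte markers did not move as 1 group. Their sum was 51.8 to 59.2 CPM at LPS day 1 against 70.0 to 92.5 CPM at LPS baseline, yet 4 of the 7 rose there, Plac8 (6.70), Chil3 (5.69), Ms4a4c (4.74) and Ly6c2 (2.91 on the log2 scale), and 2 fell, F13a1 and Ccr2. At ISO day 1 their sum was 78.7 to 88.3 CPM against 76.0 to 100 CPM at ISO baseline, and 1 of the 7 rose, Chil3. The part of these cell types in the results was not tested. Of the 8 neutrophil markers that could be tested, Hdc differed at day 1 (LPS change minus ISO change 2.88, adjusted p = 1.987e-08) and the other 7 did not pass, with a median difference of -0.34. The 8 cardiomyocyte markers, which check the tissue label, summed to 42446 to 49705 CPM at LPS day 1 against 66625 to 71957 CPM at LPS baseline, and to 50675 to 69855 CPM at ISO day 1 against 72524 to 78715 CPM at ISO baseline.

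The rest of the pathway was read from 5 lists of genes that exclude the 10, also chosen with earlier results of these data known. Of all genes tested, 33.2% were called higher and 33.0% lower at LPS day 1, and 32.9% and 32.8% at ISO day 1. Of 14 other Toll-like receptors and co-receptors that could be tested (Tlr11 and Tlr12 had too few reads), 7 rose and 3 fell at LPS day 1, and 6 rose and 4 fell at ISO day 1. Their median log2 changes were 0.80 and 0.49. Tlr3, the receptor for double-stranded RNA, rose by 2.34 after LPS (adjusted p = 1.144e-14) and fell by 0.38 after ISO (adjusted p = 0.01065), a difference between arms of 2.72 (adjusted p = 8.788e-12). Itgam, the integrin chain CD11b of myeloid cells, rose by 2.85 and 3.07 (adjusted p = 1.029e-10 and 5.545e-11), and Cd36, a scavenger receptor, rose by 0.84 and 1.04 (adjusted p = 7.589e-09 and 8.515e-10). Trem1, an amplifying receptor of myeloid cells, rested on few reads, with 108 at ISO day 1 against 2 at ISO baseline, a ratio of 71.2 with a counting interval of 19.2 to 595. Among those that fell at ISO day 1, chosen after their values were seen, were Cd180 (-2.77, adjusted p = 1.061e-05) and its partner Ly86 (-2.15, adjusted p = 4.95e-06), relatives of the Tlr4 and Ly96 pair known from B cells. The 6 B cell markers summed to 0.833 to 1.55 CPM there against 4.89 to 7.34 CPM at ISO baseline, with Ighm called lower and the other 2 that could be tested not called. The 10 macrophage markers summed to 164 to 172 CPM against 176 to 196 CPM, with 4 called lower and 2 higher. The part of either cell type was not tested.

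Of 18 further adapters and kinases, 10 rose and 2 fell in each arm at day 1, with median log2 changes of 0.25 after LPS and 0.36 after ISO. The shares of all genes called were 33.2% higher and 33.0% lower after LPS, and 32.9% and 32.8% after ISO. Irak2, a kinase downstream of Myd88, rose by 2.25 after LPS and 1.98 after ISO (adjusted p = 2.2e-14 and 8.193e-13). Tbk1, the kinase of the interferon branch, rose by 1.44 and 0.82 (adjusted p = 3.217e-13 and 1.51e-08), and the difference of 0.63 between arms passed the test (adjusted p = 0.0001561). Map3k8, which links the pathway to ERK, rose by 2.58 after LPS (adjusted p = 2.331e-11) and Traf6, the ubiquitin ligase that Myd88 signals through, by 0.69 after ISO (adjusted p = 3.426e-06). Of the 5 NF-kB subunits, 4 rose in each arm, with medians of 0.67 and 0.94. Rela, the p65 subunit, rose by 1.05 and 0.94 (adjusted p = 7.224e-11 and 1.747e-09), Relb by 1.18 and 1.34 (adjusted p = 3.677e-07 and 1.572e-07) and Nfkb2 by 0.67 and 1.26 (adjusted p = 1.409e-08 and 1.705e-12). Nfkb2 was the 1 subunit whose change differed between arms, by -0.59 (adjusted p = 6.86e-05), and Nfkb1 had log2 values of -0.08 and 0.01 and did not pass in either.

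Among 20 further inhibitors and feedback genes, 16 rose and 3 fell at LPS day 1, and 15 rose and 2 fell at ISO day 1, with medians of 1.14 and 0.63. For these and the target genes below, the shares of all genes were 33.2% higher and 33.0% lower after LPS. After ISO they were 32.9% and 32.8%. Zc3h12a, an RNase that degrades cytokine mRNAs, rose by 2.88 after LPS (adjusted p = 1.818e-14), Nfkbib, which encodes IkB-beta, by 1.33 (adjusted p = 9.559e-13) and Cyld, a deubiquitinase, by 0.88 (adjusted p = 1.129e-09). After ISO the smallest p-values belonged to Zfp36, which destabilises cytokine mRNAs (2.08, adjusted p = 2.351e-09), Bcl3, an atypical IkB (2.24, adjusted p = 4.211e-08), and Itch, a ubiquitin ligase that works with A20 (0.73, adjusted p = 4.326e-08). Those that fell, named after their values were seen, were Sigirr (-1.88), Tnip3 (-1.73) and Rnf11 (-0.38) after LPS, with adjusted p of 3.182e-08, 9.614e-06 and 6.228e-05. After ISO they were Tnip3 (-3.49) and Sigirr (-0.97), with adjusted p of 4.674e-08 and 0.0004021. Of 16 textbook NF-kB target genes (Il1b and Ccl20 had too few reads), 14 rose and 1 fell at LPS day 1 and 12 rose and 2 fell at ISO day 1, with medians of 2.98 and 2.03. The adhesion molecule genes Icam1 and Vcam1 rose by 3.80 and 1.82 after LPS (adjusted p = 1.144e-14 and 6.271e-11) and by 3.98 and 2.05 after ISO (adjusted p = 2.394e-14 and 2.556e-11). Birc3, an NF-kB-induced ubiquitin ligase, rose by 2.19 after LPS (adjusted p = 5.498e-13), and Sele, the endothelial selectin, by 3.95 after ISO (adjusted p = 2.615e-09).

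At LPS day 7, 8 of the 14 other receptors and co-receptors were called higher, with a median log2 change of 1.02, among them Itgam (1.30, adjusted p = 0.0009022). Of the 18 adapters and kinases 2 were called higher there, of the 5 subunits 0, of the 20 inhibitors 2 and of the 16 target genes 3, beside 5.96% of all genes, and none of any list was called lower, beside 3.13% of all genes. None of the lists had a called gene at ISO day 7 in the edgeR test.

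**Figure D4:**
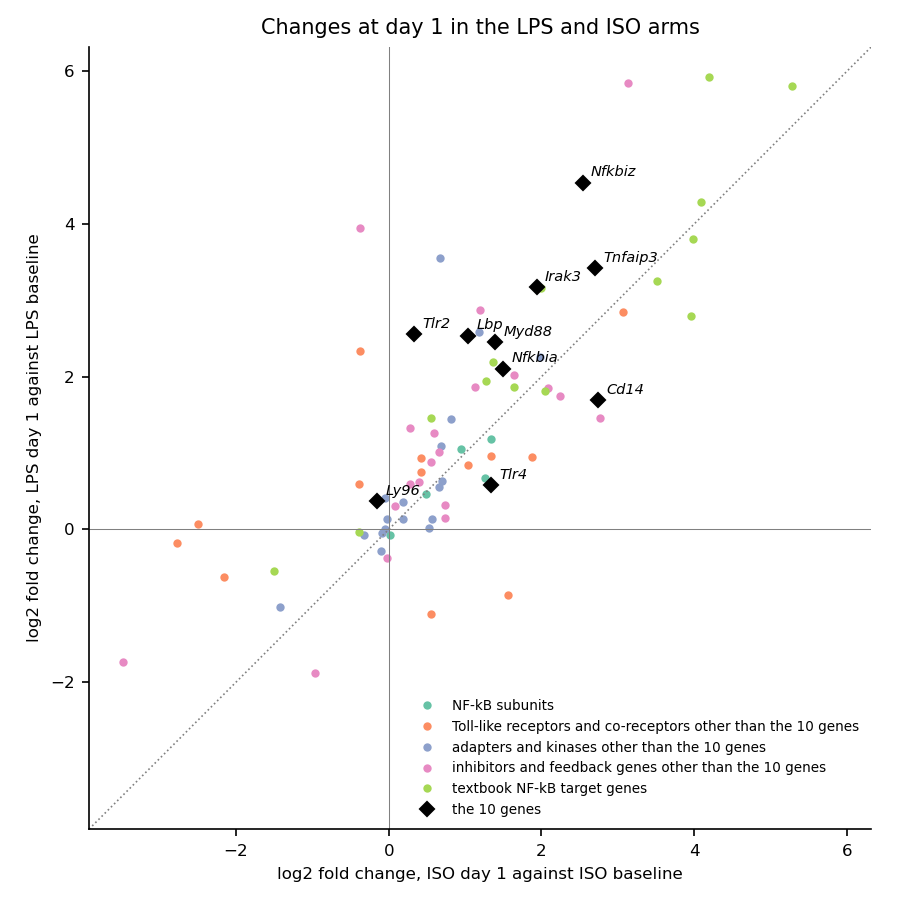
Log2 fold change at LPS day 1 (vertical) and ISO day 1 (horizontal) for the 10 genes (black diamonds) and 70 genes of the 5 lists (circles); the dotted line marks equal change, and Csf3, Il6 and Trem1 are not drawn because a group held 3 or fewer reads. Tlr2, at 2.56 and 0.33, lies far above the line, and Cd14, at 1.70 and 2.74, below it.

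The genes most like each of the 10 across the 23 libraries were found by the root mean square (RMS) difference of centred log2 CPM, among genes averaging at least 5 CPM. Tlr2 was closest to H2-D1 (RMS 0.27) and B2m (0.28), which encode the heavy and light chains of MHC class I. Cd14 was closest to Rtn4 (0.27) and Actn1 (0.28), Tlr4 to Arfgap3 and Tmem43 (0.16 each), and Ly96 to Srsf6 (0.17) and Gjc1 (0.20). Nfkbia was closest to Glul (0.17) and Clic5 (0.19), Myd88 to Slc7a6 (0.18) and Cyb561 (0.19), and Lbp to Anxa7 (0.22) and Slc45a3 (0.24). Irak3 was closest to Il17ra (0.28) and E230013L22Rik (0.32), Tnfaip3 to Ctla2a (0.30) and Il4ra (0.35), and Nfkbiz to Cyp1b1 (0.41) and Ptprf (0.48). Within the set, Myd88 and Nfkbia were the closest pair at 0.23, and Ly96 and Nfkbiz the farthest at 1.66. Each gene's own RMS spread ran from 0.29 for Ly96 to 1.72 for Nfkbiz, and all genes share the same libraries and depth.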

How the data were processed

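The members and the gene lists were chosen with earlier results of these data known. Per the file headers, the authors deposited estimated counts of reads, TPM (already divided by length) and the length and effective length in bases, in 1 gene-level file for each library. That length, another quantity, was used for offsets and is described for Lbp. Per the submitters' processing notes, DRAGEN, bcl2fastq, limma, edgeR and the mm10 build were used, with no version named. The sources used here give neither annotation release nor strand setting. Of 55487 gene identifiers, 55141 matched GENCODE M21, which gave symbols. In the files 9.5% of values were not whole, so estimated counts were rounded. They were tested with edgeR 4.0.16 (R 4.3.3): TMM scaling, filterByExpr with a minimum count of 10, and glmQLFit and glmQLFTest, two-sided, in 1 model of 6 group means without covariates, adjusted by Benjamini-Hochberg over 15732 genes. Groups came from the labels. The common biological coefficient of variation was 11%, and no libraries agreed within sampling noise. SEs were derived from the F statistic and intervals are 95%. CPM uses TMM-scaled totals. Ratios of TPM were tested with exact permutations (scipy 1.17.1, Python 3.11.15), in which the smaller one-sided p was doubled. Counting intervals (exact binomial) cover counting error only. Named genes were the 10 members and the 2 nearest genes of each. From each pathway list the 3 with the smallest adjusted p at day 1 of each arm were named. Any others, among them Nfkb1 and single marker genes such as Hdc, were named after their values were seen. Alternatives were other scalings, DESeq2 1.42.0, limma-voom (limma 3.58.1), other count filters, the compared groups alone, effective-length offsets, log2(TPM + 0.1) and log2(TPM + 1) with limma, a replicate block and leaving out libraries. The edgeR step was tested on simulated data with known fold changes. Promoter sequences are from RefSeq (GRCm38.p6).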

Additional observations from a re-analysis of the deposited data

Results flagged for a closer look

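Nfkbiz at ISO day 7 had 1 library far from the others, replicate 3 at 0.981 TPM against 0.446, 0.463 and 0.522 TPM. It was the 1 such value in 50 groups of 4 checked, and chance gives about 1 in 20. The same library carried monocyte markers summing to 234 CPM against 80.7 to 88.1 CPM in the others, and fibroblast markers summing to 2776 CPM against 1716 to 2015 CPM; their part was not tested.

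The day 1 changes of 8 genes differed between the LPS and ISO arms by the interaction test. On the log2 scale, LPS change minus ISO change, the differences were 2.24 for Tlr2, 2.002 for Nfkbiz, 1.498 for Lbp, 1.23 for Irak3, 1.06 for Myd88 and 0.61 for Nfkbia, and -0.77 for Tlr4 and -1.05 for Cd14. Adjusted p ran from 6.178e-07 for Tlr2 to 0.01764 for Nfkbia.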

How the results depend on the processing

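Of 1891 recomputed log2 changes of the 10 genes, 1856 kept their direction and side of the threshold, 21 lost a call, 14 gained one, and no called value changed sign. Of 90 gene-by-comparison results, 79 held under every alternative run. At LPS day 7 against baseline, 4 genes were called; limma-voom called 2, and leaving out each library gave 2 to 3. Irak3 (limma-voom adjusted p = 0.0967, effective-length offsets 0.0673) and Tnfaip3 (limma-voom 0.111) were the genes lost, and Nfkbiz was gained with log2(TPM + 0.1) (0.66, adjusted p = 0.0405). The day 7 difference between arms had 0 to 1 genes called on leaving out each library, the 1 being Cd14 without ISO day 7 replicate 3. The Tnfaip3 difference between arms at day 1 was also called without a count filter (0.71, adjusted p = 0.043) and with log2(TPM + 1) (0.61, adjusted p = 0.0353). The replicate block called it too (0.74, adjusted p = 0.0494), and moved no other call of the 10 genes. Same-numbered libraries did not deviate together (correlations of -0.12 to 0.08 in the ISO arm and -0.03 to 0.05 in the LPS arm), so the numbers were not taken as pairs. Ly96 at LPS day 1 was 0.77 (adjusted p = 0.00919) without LPS day 1 replicates 3 and 4 and -0.16 (adjusted p = 0.636) without replicates 1 and 2. The pseudocount of 1 TPM shrinks changes of low genes by construction, Nfkbiz at LPS day 1 to 3.04. Scaling by library totals moved the median of all genes by 0.16 at LPS day 7 against baseline and by 0.20 against LPS day 1. Counts over all genes moved at LPS day 7 from 1431 to 2511 with library totals, 2281 with log2(TPM + 1), 2600 with the compared groups alone and 621 to 1198 on leaving out a library. For the day 7 difference between arms 72 became 141 with DESeq2, 111 with log2(TPM + 1) and 40 to 320 on leaving out a library. For LPS against ISO baseline 191 became 316 with DESeq2, 27 with the replicate block, 701 alone and 107 to 139 on leaving out a library. ISO day 7 gave 0 to 2 under all of these. Depth limits Ly96 most, with 13 to 33 reads per library. The causes were not tested.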

Other observations

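T and NK cell markers were higher at LPS day 7, where Tlr2 and Cd14 were still raised. The 8 T and NK cell markers summed to 7.87 to 10.9 CPM at LPS day 7 against 0.395 to 0.507 CPM at LPS baseline, and all 6 that could be tested were called higher in edgeR's test, with a median log2 change of 4.32. The 6 B cell markers summed to 7.56 to 12.1 CPM against 4.13 to 6.48 CPM, but of the 3 that could be tested only Ighm was called higher (0.98, adjusted p = 0.003058), with Cd79b at 0.56 and Cd79a at -1.09 not called. At ISO day 7 the T and NK cell sum was 0.298 to 0.747 CPM against 0.485 to 1.45 CPM at ISO baseline, and the groups overlapped. The sums themselves, and their part in the changes of Tlr2 and Cd14, were not tested.

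The ratio of Ly96 to Tlr4 in TPM was 0.514 ± 0.216 at LPS day 1 and 0.601 ± 0.0947 at LPS baseline (SD, n = 4 each), with overlap. It was 0.202 ± 0.0457 at ISO day 1 (SD, n = 3) and 0.623 ± 0.124 at ISO baseline (SD, n = 4), without overlap, an exact permutation p of 0.05714 and 0.0857 adjusted over 24 ratio comparisons. At most 33 reads of Ly96 per library lay behind it. Ratios of Tnfaip3 to Nfkbia were 0.0764 ± 0.00395 at LPS day 1 (SD, n = 4) and 0.0768 ± 0.0217 at ISO day 1 (SD, n = 3), against 0.0318 ± 0.0116 at LPS baseline and 0.0347 ± 0.00389 at ISO baseline (SD, n = 4 each).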
